A study of Mus musculus with 6 samples.

Results

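Within tumours grown from the mouse melanoma line Yumm5.2, 2239 of 22390 tumour cells stood at the top of a summed score of 7 genes: Postn, Ogn, Nrep, H19, Penk, Col5a2 and Serpinf1. Tumour cells were barcodes with at least 3000 UMIs (unique molecular identifiers, each counting 1 captured RNA molecule), at most 20% mitochondrial UMIs, at most 1 Tyrobp UMI, no Ptprc, Pecam1 or Cdh5 UMI and at least 5 UMIs of Spp1, Grem1 and Cdkn2a together. Each cell's UMIs of the 7 score genes were divided by its total UMIs, and the top 10% over all 6 libraries were taken. These cells are called Postn/Ogn cells here, and the remaining 20151 tumour cells are called other tumour cells. The 6 libraries held 43929 barcodes in all.

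Postn encodes periostin, a secreted protein of connective tissue matrix that binds integrins and collagen. Ogn encodes osteoglycin (mimecan), a small leucine-rich proteoglycan that binds collagen fibrils, and Col5a2 encodes a chain of collagen V, which sits within collagen I fibrils. Serpinf1 encodes PEDF, a secreted serpin known for blocking vessel growth. Penk encodes the precursor of enkephalin opioid peptides, Nrep encodes P311, a small intracellular protein studied in myofibroblasts, and H19 is an imprinted long non-coding RNA. Melanoma lines can lose pigment genes and express matrix and mesenchymal genes, and connective tissue cells of the host express many of the same genes.

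The series measured single-cell RNA in tumours of Yumm5.2 cells, of which 350000 were implanted under the skin of the right flank of C57BL/6 mice. All 3 lines carried a short hairpin RNA against Cdkn2a, which encodes the p16 and p19 cell cycle inhibitors, so that knockdown has no unmodified control here. The control line added a control hairpin, and the other lines added hairpin 1 or hairpin 2 against Slc39a9, the gene of a Golgi zinc transporter. Mice of each line received 200 µg of anti-PD1, an antibody that blocks an inhibitory receptor of T cells, or a placebo IgG, by the intraperitoneal route 3 times a week once the tumours were palpable. Each line and treatment gave 1 library, so the knockdown groups hold 2 libraries from different lines and the control groups hold 1. The labels do not say how many mice went into a library, nor whether a line is 1 clone.

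Values are CPM, a gene's UMIs per 1000000 UMIs, from UMIs summed over the Postn/Ogn cells, or over the other tumour cells, of a library. They come from 1257572 to 8644310 UMIs per library in the Postn/Ogn cells. Where 6 values are given, they run control, hairpin 1, hairpin 2, with the IgG library before the anti-PD1 library of each line. Barcode sequences were shared widely: 3127 occurred in all 6 libraries and 3508 in only 1. No 2 barcodes of the same name held identical profiles.

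Sex-linked genes were read as a check on origin. Summed levels of the Y-linked genes Ddx3y, Eif2s3y, Kdm5d and Uty were 8.55, 8.50, 1.64, 1.74, 7.95 and 4.14 CPM in the Postn/Ogn cells and 1.78, 2.36, 1.56, 2.17, 2.89 and 2.46 CPM in the other tumour cells. The Postn/Ogn cells were thus above the other tumour cells in 5 of 6 libraries, most in the control line, and far below the immune cells of the same tumours, at 265.5 to 282.3 CPM. A Y-linked UMI was seen in 5.23%, 3.80%, 1.74%, 1.33%, 4.03% and 2.30% of the Postn/Ogn cells and in 2.45%, 2.87%, 3.22%, 3.52%, 3.70% and 3.18% of the other tumour cells, so more often in 3 libraries and less often in the other 3. Xist, the RNA that silences an X chromosome in female cells, was at 84.9, 92.9, 140, 166, 77.9 and 48.2 CPM in the Postn/Ogn cells and at 8.03 to 24.3 CPM in immune cells. Reading Y-linked RNA as a host mark is an assumption, since the labels give no sex of mice or line.

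The matrix genes described further on go with the label mesenchymal, but most mesenchymal transcription factors did not set these cells apart from the other tumour cells. Of 18 melanocyte and neural crest genes, Dct and Mlana (pigment enzyme and melanosome protein) and Sox10 (a neural crest transcription factor) had no UMI in any Postn/Ogn cell. The whole list summed to 341 to 523 CPM in the Postn/Ogn cells and to 250 to 338 CPM in the other tumour cells. Of its 4 tested genes 1, Pax3, counted as higher by the rule given further on (list median log2 ratio 0.42). Mitf, the melanocyte master regulator, was at 15.9 to 26.2 CPM, against 12.2 to 21.2 in the other tumour cells. Pax3, a neural crest factor, was at 93.5 to 142 CPM, against 54.3 to 70.7.

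A host reference of 45 cells was set beside them: cells with collagen RNA and a Y-linked UMI, no Xist UMI and under 5 UMIs of Spp1, Grem1 and Cdkn2a. The control libraries gave 13 and 17 of these 45 cells and each hairpin library 3 to 5. The pericyte gene Rgs5 was at 1181 CPM in the reference cells and at a mean of 0.85 CPM in the Postn/Ogn cells. Other genes of the pericyte and smooth muscle list were expressed: the list summed to 208 to 350 CPM in the Postn/Ogn cells and 68.3 to 92.9 CPM in the other tumour cells, with Higd1b at 0, and its 3 tested genes (Notch3, Pdgfrb and Acta2) all counted as higher by the rule given further on. Pi16, a marker of host fibroblasts, was at 2511 CPM in the reference and 22.7 CPM in the Postn/Ogn cells. Spp1 was at 100 CPM in the reference and at 5764 to 14370 CPM in the Postn/Ogn cells. It is a gate gene that also defined the reference, so this direction was set by the rules. The host fibroblast list summed to 1625 to 2864 CPM in the Postn/Ogn cells and 1461 to 1789 CPM in the other tumour cells, with none of its genes at 0, and 3 of its 10 tested genes (Pdgfra, Dpt and Fap) counted as higher by the same rule. The part of host cells in the results was not tested, but every count of genes was repeated without cells with a Y-linked UMI.

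Slc39a9 (chr12:80643883-80683342, plus strand) was at 18.8 and 23.1 CPM in the Postn/Ogn cells of the control line, 7.59 and 10.4 CPM in hairpin 1, and 12.7 and 9.84 CPM in hairpin 2. All 4 knockdown libraries lay below both control libraries. The other tumour cells gave 22.5, 20.6, 7.82, 7.90, 11.9 and 10.8 CPM. Cdkn2a, targeted in all lines, was at 600, 571, 313, 298, 398 and 500 CPM, which checks nothing.

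The Postn/Ogn cells were unevenly spread over the lines. They made up 4.16% (172 of 4138) and 4.32% (184 of 4264) of the tumour cells of the control line, 26.7% (690 of 2584) and 29.7% (827 of 2789) of hairpin 1, and 3.61% (149 of 4124) and 4.83% (217 of 4491) of hairpin 2. Both hairpin 1 libraries stood above the other 4, which lay close together. The exact 95% binomial intervals, which cover counting error only, were 25.0% to 28.5% and 28.0% to 31.4% in hairpin 1 and lay between 3.06% and 5.50% in the other 4 libraries. Since 1 cut was made over all libraries on genes that differ between the lines, this is a description and was not tested. Hairpin 1 is 1 line, so the hairpin and other features of that line cannot be told apart. Hairpin 1 also supplied most of the Postn/Ogn cells, so every comparison was made on sums per library.

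**Figure D1:**
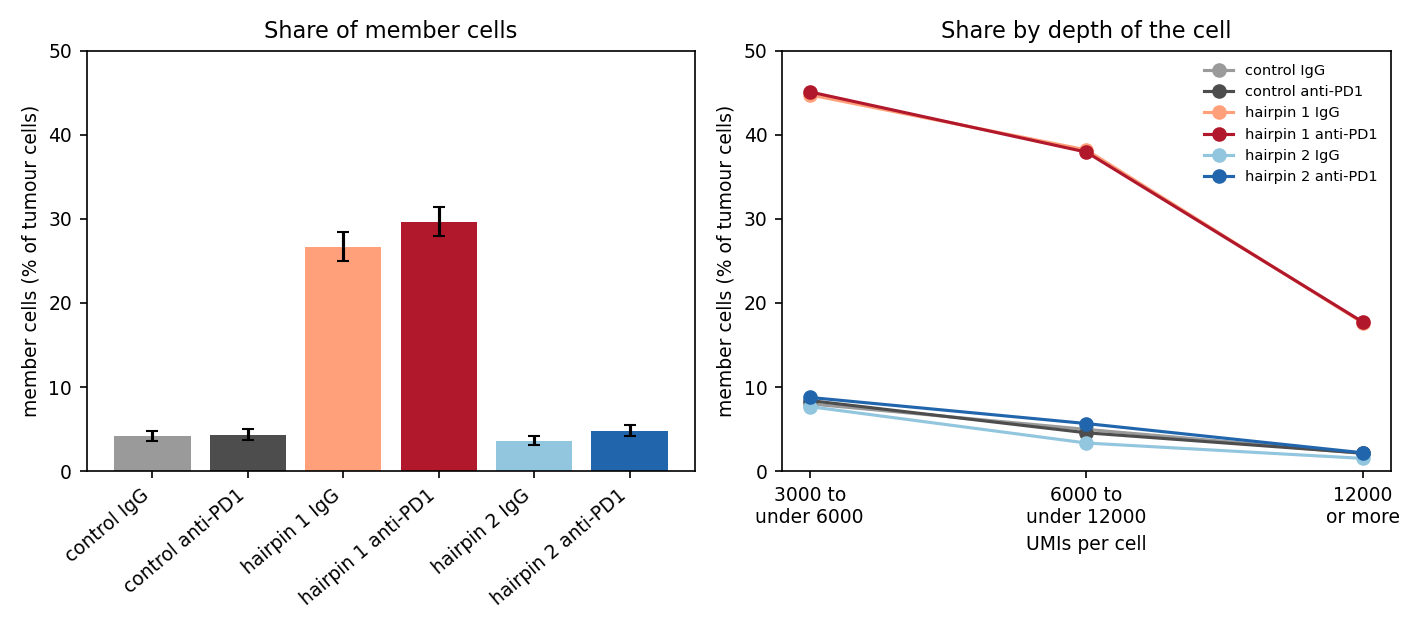
Left, percent of each library's tumour cells that are Postn/Ogn cells (bars from 0, with exact 95% binomial intervals). Right, the same percent within 3 classes of UMIs per cell; hairpin 1 lies at 26.7% and 29.7% overall and is highest in each class.

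The share also moved with depth. Among tumour cells of 3000 to under 6000 UMIs the shares were 8.01%, 8.40%, 44.8%, 45.1%, 7.68% and 8.77%. Among cells of 12000 or more they were 2.10%, 2.15%, 17.6%, 17.7%, 1.52% and 2.18%. Hairpin 1 was highest in each depth class. The median Postn/Ogn cell held 6066 to 9672 UMIs and the median other tumour cell 10138 to 17108. Mitochondrial UMIs were close, with library medians of 1.87% to 2.54% and 1.74% to 2.42%. When every cell was thinned to 3000 UMIs before scoring, the shares were 4.33%, 4.71%, 26.1%, 28.9%, 4.05% and 4.70%. The shares still differed by depth, from 8.01%, 7.94%, 43.5%, 44.9%, 7.78% and 7.62% in the shallowest class to 2.46%, 2.64%, 17.5%, 17.0%, 1.88% and 2.34% in the deepest.

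The cut fell on a slope with no gap. The last cell inside had a score of 1668 CPM (8 of 4795 UMIs) and the first outside had 1667 (57 of 34187). The 100 cells just inside had a median of 1709 and the 100 just outside 1639. The median Postn/Ogn cell had 3109 and the median other tumour cell 161, while 6015 of the other tumour cells had no UMI of the 7 genes. The median over all tumour cells was 119 in both control libraries, 615 and 731 in hairpin 1, and 144 and 172 in hairpin 2. The group is therefore the upper end of a range of scores. Whether some of its cells form a separate type was not tested.

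The 7 score genes chose the cells, so their levels are given as a description. Postn was at 461, 290, 736, 898, 572 and 448 CPM in the Postn/Ogn cells and at 2.58, 2.80, 11.6, 17.6, 5.76 and 4.12 CPM in the other tumour cells. The host reference cells held far more, 3036 CPM. Immune cells of the same libraries gave 12.4, 4.26, 11.9, 45.9, 6.99 and 7.48 CPM of Postn, above the other tumour cells in each. The low levels in the other tumour cells thus cannot be told apart from background. Ogn was at 98.6, 122, 247, 238, 97.8 and 77.2 CPM, against 2.01 to 15.4 CPM outside and 88.9 CPM in the reference. Both genes were highest in hairpin 1.

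Col5a2 gave the most even level, 1182, 1263, 1226, 1280, 1039 and 1209 CPM, against 109 to 244 CPM in the other tumour cells. Serpinf1 was at 593, 639, 818, 881, 620 and 529 CPM, against 65.8 to 153 CPM. Nrep was at 127, 135, 414, 374, 291 and 375 CPM, against 5.93 to 32.5 CPM. Penk was at 994 and 928 CPM in the control line and at 255 to 491 CPM in the 4 knockdown libraries. In each control library 1 cell held 706 of 1743 and 534 of 1528 Penk UMIs. Without the top cell of each library Penk was at 616 and 618 CPM in the control line and at 231 to 459 CPM in the others. H19 was at 9.69, 24.3, 177, 165, 19.9 and 2.59 CPM, and the hairpin 1 libraries stood above the rest.

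**Figure D2:**
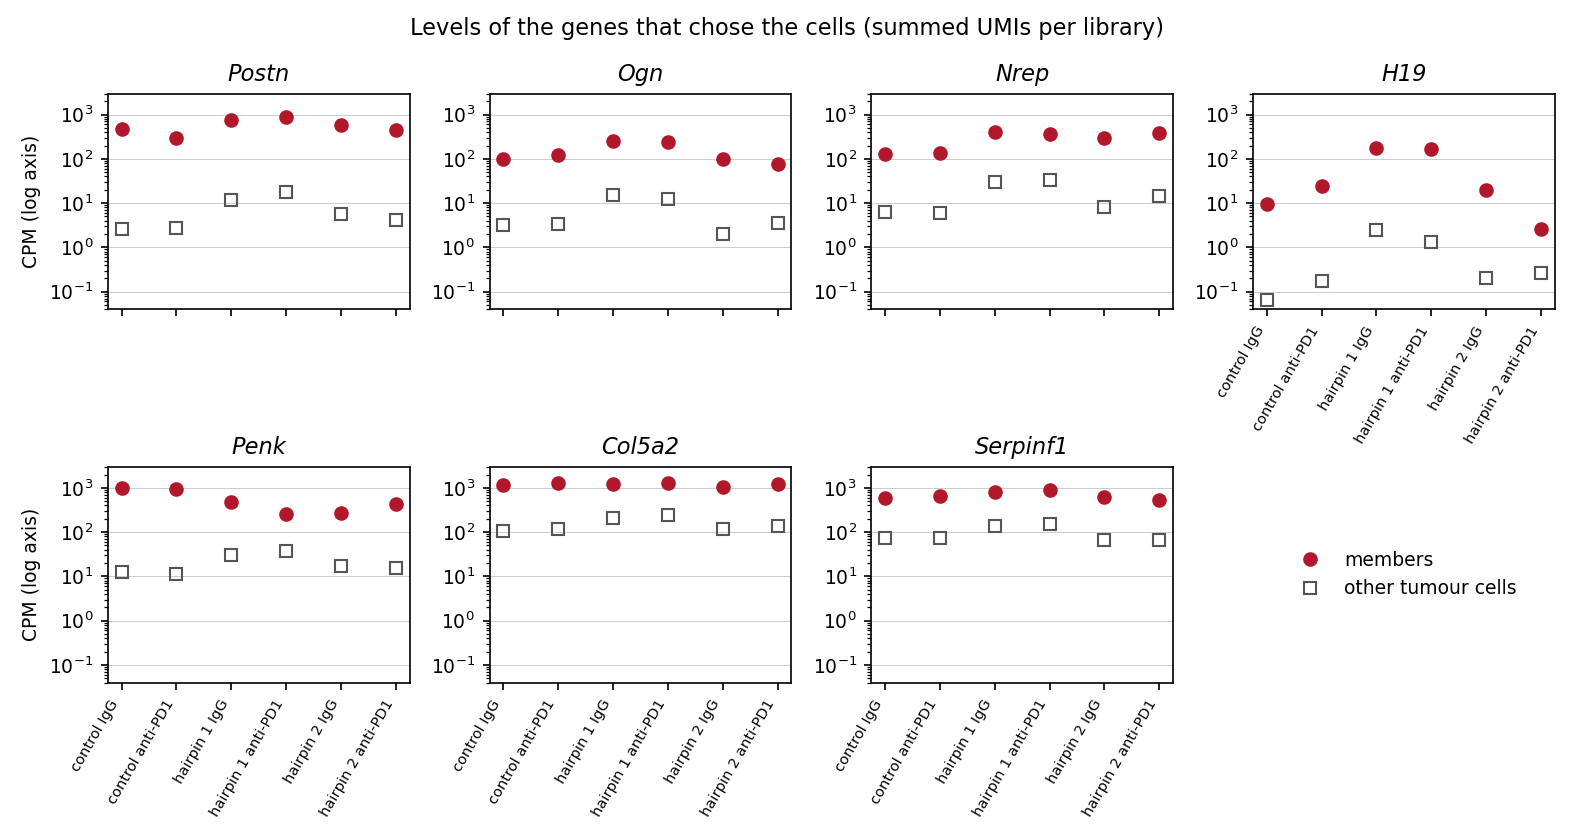
Level of the 7 score genes (CPM, log axis) in Postn/Ogn cells (red circles) and other tumour cells (open squares) of the 6 libraries. Col5a2 lies between 1039 and 1280 CPM in the Postn/Ogn cells, while H19 spans 2.59 to 177 CPM.

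Only Col5a2 and Serpinf1 were seen in nearly all Postn/Ogn cells. Shares of cells with a UMI were 95.1% to 99.3% for Col5a2 and 86.6% to 96.9% for Serpinf1 without thinning. Thinned to 3000 UMIs a cell, they were 89.0% to 94.1% and 65.4% to 87.7%. Postn was seen in 48.8%, 44.6%, 75.8%, 76.3%, 52.3% and 59.4% of Postn/Ogn cells, and after thinning in 37.8%, 33.2%, 59.4%, 64.6%, 44.3% and 42.4%. Immune cells, which should lack Postn and had median depths of 4804 to 5981 UMIs, gave 1.16% to 4.30%, and 0.385% to 2.65% after thinning. Ogn was seen in 22.8% to 50.0% of Postn/Ogn cells (13.8% to 35.1% after thinning), against 0.256% to 2.44% of immune cells without thinning.

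Penk and H19 came from few cells. Penk was detected in 29.3% to 41.7% of Postn/Ogn cells, and the 10% of cells with the most Penk UMIs held 74.5% to 92.9% of them, with up to 706 UMIs in a cell. H19 was detected in 1.38% to 6.89% of Postn/Ogn cells, and 1 cell of hairpin 1 with IgG held 509 of 1512 UMIs. Without the 1 cell with the most, H19 was at 117 and 112 CPM in hairpin 1 and at 1.57 to 15.9 CPM elsewhere. Col5a2 was the leading score gene in 36.9% to 57.6% of Postn/Ogn cells, Postn in 7.61% to 24.9% and Serpinf1 in 11.1% to 21.5%.

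Few cells held all 7 genes together. After thinning to 3000 UMIs, 710 Postn/Ogn cells had UMIs of 3 score genes, 601 of 4, 261 of 5, 80 of 6 and 8 of all 7. The share with 4 or more was 22.7%, 16.8%, 50.1%, 52.0%, 27.5% and 29.0%, highest in both hairpin 1 libraries. Of the 20151 other tumour cells, 47 had 4 or more and 55.3% had none. Of the 21 pairs of score genes, 4 kept 1 direction in all 6 libraries: Postn with Ogn, Postn with Col5a2 and Nrep with Penk were found together more often, and Ogn with Nrep less often. Ogn was seen in 16.1% to 36.7% of the Postn/Ogn cells with Postn and in 7.32% to 30.2% of those without. Pairing within cells chosen on the sum of the same genes is a description.

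Postn lies at chr3:54361109-54391037 on the plus strand of mm10, and Ogn at chr13:49608046-49624501, also on the plus strand. On chromosome 13, Ogn is preceded by 3 more matrix genes on the same strand: Ecm2 (49504810 to 49532789), Aspn (49544443 to 49567565) and Omd (49582462 to 49592822). Aspn encodes asporin, which binds collagen and TGF-beta, and was no score gene. It was at 432, 420, 484, 486, 503 and 595 CPM in the Postn/Ogn cells and 50.8 to 104 CPM outside, so the groups did not overlap. Omd (osteomodulin) was at 11.5 to 27.0 CPM, against 2.48 to 4.77 CPM, and Ecm2 at 3.42 to 10.3 CPM, against 0.574 to 1.53 CPM. Aspn, Omd and Ecm2 were thus higher in the Postn/Ogn cells of every library, while the level of Ogn was part of the rule.

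The 100 bases before the RefSeq start of Postn and of the neighbours Ogn and Aspn (GRCm38.p6, plus strand, 5′ to 3′) are shown because these genes name the cells or share their region with one that does. Capitals mark matches to the motifs, searched on both strands. The core of TATA promoters was searched as TATAAA and the AP-1 site as TGANTCA. The TEAD site was searched as GGAATG and the E box as CANNTG. The fifth was CCAAT. The windows are chr3:54361007-54361106, chr13:49607915-49608014 and chr13:49544343-49544442.
Postn: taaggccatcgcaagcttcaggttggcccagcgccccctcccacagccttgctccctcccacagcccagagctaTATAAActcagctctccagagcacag
Ogn: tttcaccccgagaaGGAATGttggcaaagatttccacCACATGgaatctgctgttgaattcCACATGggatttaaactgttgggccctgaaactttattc
Aspn: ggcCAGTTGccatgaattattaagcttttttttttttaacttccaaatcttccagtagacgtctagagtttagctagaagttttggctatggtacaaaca
The Postn window holds TATAAA, whose first base lies 26 bases before the start. The Ogn window holds GGAATG at 86 bases and CANNTG at 63 and 39 bases before the start, and the Aspn window holds CANNTG at 97 bases. Of 32844 promoter windows of this length, 5.56% held TATAAA, 4.71% GGAATG and 34.5% CANNTG. No window of the 3 held TGANTCA (2.73% of all windows) or CCAAT (18.9%). A match in these letters is not evidence of binding.

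Against the other tumour cells, the Postn/Ogn cells had higher levels of most collagen and matrix glycoprotein genes tested and lower levels of 13 of 26 glycolysis and hypoxia genes and of some proliferation genes. A gene was counted as higher or lower where its ratio was at least 1.5 in the same direction in all 6 libraries. Of 10313 genes that averaged 5 CPM or more, 541 were higher (5.25%) and 310 lower (3.01%), 8.25% in all, with a median log2 ratio over all genes of 0.03. Score and gate genes are left out. The average was taken over both cell groups, so a gene near the floor in 1 group can pass through the other. Its direction is then largely set by this filter. Bgn, Omd and Mest, for example, passed only through the Postn/Ogn cells, and Nppb only through the other tumour cells. The cells were picked from the expression of these libraries, so no test was made and the shares are the background for the counts that follow. In bulk sums, fewer cells expressing a gene and less RNA per cell cannot be told apart.

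Fibrillar collagens led. Col1a1, the main chain of collagen I, was at 1161, 857, 537, 468, 854 and 684 CPM in the Postn/Ogn cells and at 33.6, 35.7, 42.1, 63.8, 54.9 and 54.9 CPM in the other tumour cells, a mean log2 ratio of 3.94 ± 0.78 (SD, n = 6 libraries). The host reference held 13649 CPM. Col1a2, the partner chain, was at 5473 to 8581 CPM, against 1103 to 2679 CPM, and so was abundant outside the group too. Col3a1 was at 3139 to 4391 CPM, against 539 to 1021, and Col11a1 at 164 to 257, against 26.0 to 48.8. Of 16 collagen genes 12 were higher and none lower, with a list median of 1.31. Col18a1, whose fragment is endostatin, had a log2 ratio of 0.37 and was not counted. Summed collagen chains reached 13602 to 17929 CPM, against 3569 to 5748 CPM.

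Small leucine-rich proteoglycans, which coat collagen fibrils, followed. Bgn (biglycan) was at 77.5, 71.6, 26.7, 26.8, 77.1 and 26.9 CPM, against 1.74 to 3.28 CPM (log2 ratio 3.84 ± 0.99, SD, n = 6). The control libraries and hairpin 2 with IgG were higher than the other 3, yet all lay above the other tumour cells. With Aspn, 3 of 5 tested genes of this family were higher and none lower (median 2.04). Dcn (decorin), an abundant fibroblast gene, was at 585 to 1459 CPM, against 471 to 606 CPM, and was not counted because 1 or more libraries missed the fold.

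Matrix glycoproteins and elastic fibre genes had 14 of 21 higher and none lower (median 1.14). Sparc, which binds collagen, was at 7701 to 8751 CPM, against 2719 to 3391 CPM. Mgp (matrix Gla protein) was at 243 to 831 CPM, against 78.5 to 235, and Fbn1 (fibrillin) at 355 to 643, against 147 to 268. Fbln5, an elastic fibre assembly protein, gave the most even ratio among the named genes, 124 to 169 CPM against 18.1 to 28.2 (log2 ratio 2.63 ± 0.13, SD, n = 6). Among the thrombospondins Thbs3 was counted as higher, while Thbs1 and Thbs2 had mean log2 ratios of -0.74 and -0.46 and were not counted.

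Enzymes that process and crosslink collagen split. Of 20 tested, 8 were higher and 2 lower (median 0.65). Bmp1, which trims procollagen, was at 378 to 453 CPM, against 162 to 201 CPM. The lysyl oxidases Loxl2 (34.2 to 101 CPM, against 11.5 to 16.4), Loxl1 (log2 ratio 2.62) and Loxl3 (1.44) were higher, as was the protease Adamts2 (2.34). Loxl4 (-1.46) and Pcolce2 (-1.38), an enhancer of procollagen trimming, were lower.

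Further secreted and surface genes stood among the 15 with the highest ratios. Timp3, a metalloproteinase inhibitor held in the matrix, was at 2298, 1992, 3733, 3417, 2673 and 3762 CPM, against 294 to 863 CPM. Apod, a lipid carrier, was at 186, 232, 198, 154, 394 and 285 CPM, against 13.0 to 37.5. Igf1, a growth factor, was at 29.1, 73.5, 63.7, 66.7, 50.9 and 37.3 CPM, against 2.64 to 7.12. Fap, a surface protease often used to mark activated fibroblasts, was at 50.2 to 110 CPM, against 7.61 to 12.0. Others were Pdgfrl, C1s1 (a complement protease), Selenop (a selenium carrier), Trp53i11 and Col12a1, with mean log2 ratios of 2.62 to 3.01. Sparcl1, a Sparc relative, varied most among the lines, with 161 and 224 CPM in hairpin 1 and 10.8 to 64.7 in the other 4 libraries, against 3.21 to 6.98 outside (log2 ratio 3.23 ± 1.43, SD, n = 6).

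**Figure D3:**
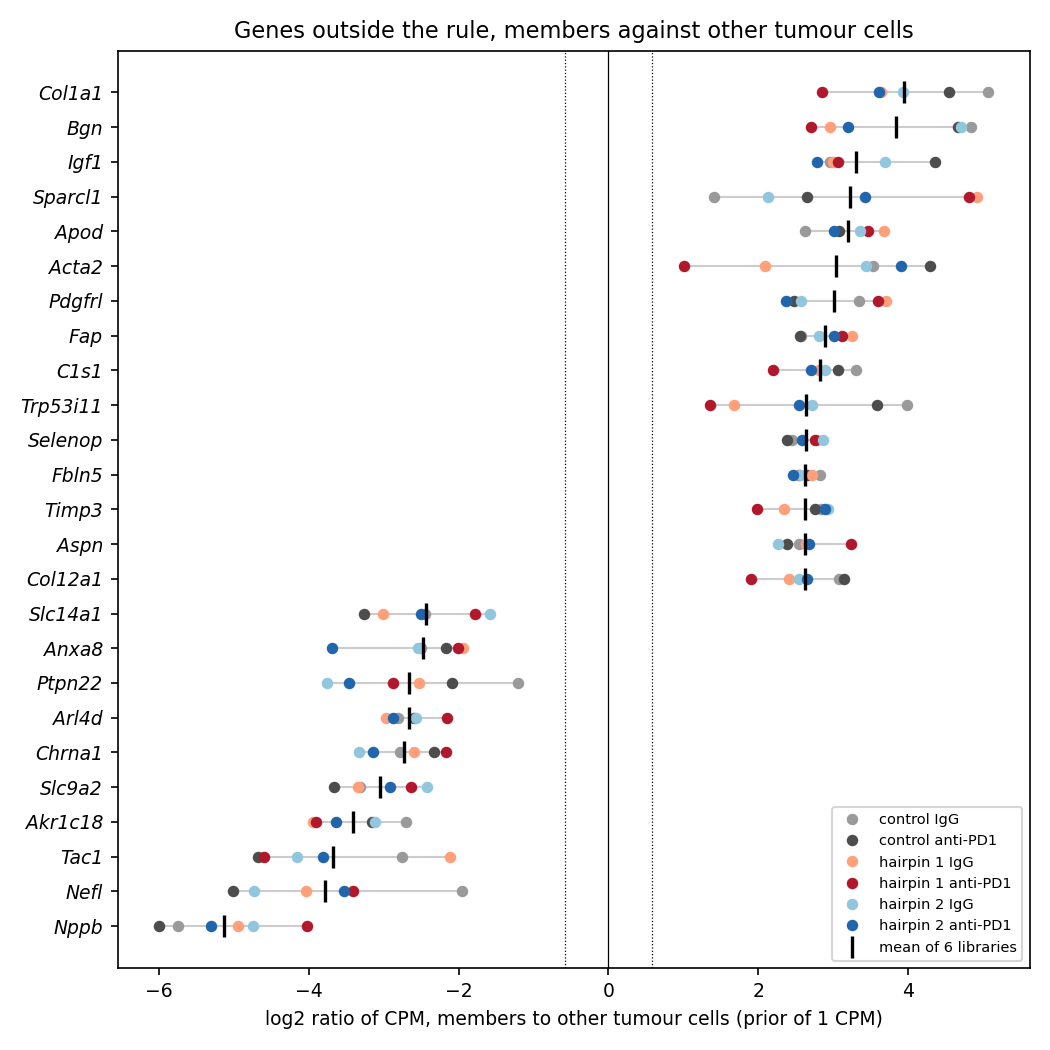
Log2 ratio of Postn/Ogn cells to other tumour cells for the 15 highest and 10 lowest genes, 1 point per library and a bar at the mean; dotted lines mark 1.5-fold. Col1a1 has the highest mean, 3.94, and Nppb the lowest, -5.13.

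Growth factor pathway genes moved in both directions. Of 22 TGF-beta and BMP pathway genes and targets, 7 were higher and 2 lower (median 0.41). The ligands Tgfb2 (52.8 to 81.8 CPM, against 14.1 to 22.9) and Tgfb3 (73.5 to 162, against 19.3 to 35.6) were higher, as were the receptor Tgfbr2 (129 to 174, against 55.2 to 67.6) and the BMP target Id3 (163 to 352, against 52.2 to 96.0). Latent TGF-beta binding proteins Ltbp2, Ltbp3 and Ltbp4 had log2 ratios of 1.69, 1.00 and 1.58. The ligand Bmp2 was lower, at 71.9 to 167 CPM against 251 to 405, and so was the activin antagonist Fst, at 45.1 to 146 against 164 to 707. The BMP antagonist Grem1, a gate gene, was at 1318 to 2533 CPM, against 2103 to 4037 CPM.

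Lineage regulators differed little. Of 15 mesenchymal transcription factors, Tbx18 (75.3 to 121 CPM, against 42.1 to 55.3) and Osr2 (34.2 to 122, against 8.31 to 30.1) were higher and none lower (median 0.43). Prrx1 and Twist1 had log2 ratios of 0.23 and -0.24. Of 8 bone, cartilage and tendon genes 1 was higher (Mkx, a tendon transcription factor, 1.48), and of 8 contractile genes 3 were higher. Among those, Acta2 (smooth muscle actin) ranged from 28.6 to 163 CPM, against 1.75 to 23.4 outside. Of 8 imprinted growth genes 1 was higher, Mest, at 7.95 to 63.6 CPM against 1.36 to 3.13. Pericyte and smooth muscle markers had 3 of 3 higher (median 1.44), including Pdgfrb (150 to 189 CPM, against 46.3 to 82.6).

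**Figure D4:**
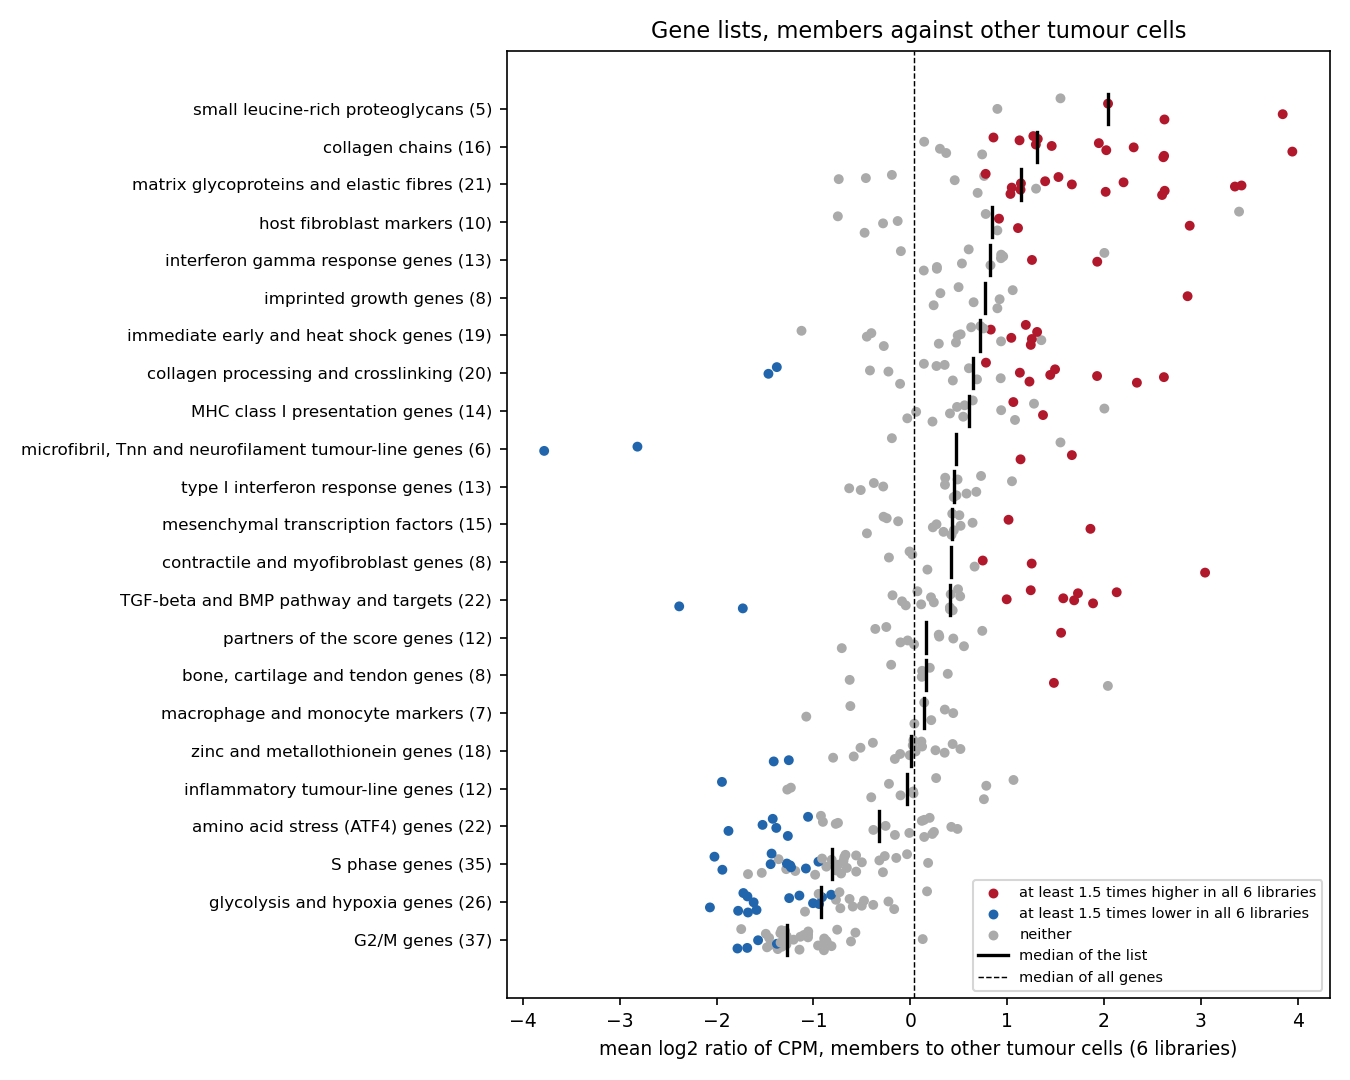
Log2 ratio of Postn/Ogn cells to other tumour cells for the tested genes of the lists with enough tested genes: red, higher in all 6 libraries; blue, lower in all 6; grey, neither; black bar, list median; dashed line, median of all genes (0.03). Collagen chains have a median of 1.31 and G2/M genes of -1.28.

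Nppb, the precursor of B-type natriuretic peptide, had the lowest ratio of the named genes. It was at 5.13, 2.43, 2.22, 1.27, 2.39 and 1.55 CPM in the Postn/Ogn cells and at 327, 218, 98.5, 36.1, 89.3 and 100 CPM in the other tumour cells (log2 ratio -5.13 ± 0.72, SD, n = 6). Nefl, a neurofilament subunit, and Tac1, the precursor of substance P, had log2 ratios of -3.78 and -3.68. Akr1c18, which inactivates progesterone, was at 138, 95.9, 29.8, 25.1, 139 and 83.9 CPM, against 388 to 1214 CPM. Slc9a2, Chrna1, Arl4d, Ptpn22, Anxa8 and Slc14a1 had log2 ratios of -3.05 to -2.43. Of the keratinocyte-like genes, a list drawn from earlier results on these libraries, 2 of 3 tested were lower, Aqp3 and Sprr1a (median -2.96). The list summed to 30.2 to 40.9 CPM, against 65.3 to 186 CPM. Genes this low can pass the 5 CPM filter through the other tumour cells alone, so the count of 2 of 3 carries little weight.

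Proliferation genes had medians below that of all genes. Of 35 S phase genes 9 were lower and none higher (median -0.81), and of 37 G2/M genes 4 were lower and none higher (median -1.28). Cdk1, the mitotic kinase, was at 27.4 to 72.4 CPM, against 89.2 to 211. Pcna, the replication clamp, was at 56.4 to 92.3 CPM, against 131 to 177. Summed G2/M genes gave 990 to 2057 CPM, against 2016 to 4669 CPM. The sum was lower in the Postn/Ogn cells of every library except control with anti-PD1, which had 2057 CPM against 2016 CPM. Proliferating cells hold more RNA as a rule, and the Postn/Ogn cells were shallower, but the part of depth in these ratios was not tested.

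Glycolysis and hypoxia genes had 13 of 26 lower and none higher (median -0.93). The glucose transporter Slc2a1 was at 22.3 to 60.7 CPM, against 85.5 to 202, and the glycolytic enzyme Pgk1 at 579 to 911, against 1340 to 1894. Ero1l, Ankrd37 and Bnip3, which respond to hypoxia, had log2 ratios of -2.07, -1.78 and -1.59. Amino acid stress genes driven by ATF4 had 6 of 22 lower and none higher (median -0.32), among them Chac1 (-1.88), Psat1 (-1.53) and Mthfd2 (-1.38). The metallothioneins Mt1 (182 to 347 CPM, against 374 to 859) and Mt2 (160 to 372, against 309 to 819), which bind zinc, were the 2 lower genes among 18 zinc genes. Ptgs2, the inducible cyclooxygenase, was at 113 to 430 CPM, against 493 to 1186.

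Some immediate early and immune genes were higher. Of 19 immediate early and heat shock genes 6 were higher and none lower (median 0.72): the immediate early genes Fos, Fosb, Jun, Ier2, Zfp36 and Btg2. Fos was at 1701 to 2199 CPM, against 724 to 978 CPM. These genes can be induced by tissue digestion, whose part was not tested. Of 13 interferon gamma response genes 2 were higher, Irf1 (111 to 163 CPM, against 42.6 to 85.2) and Iigp1 (1.93), and of 14 MHC class I genes 2 were higher, Tapbp and H2-M3. None of 13 type I interferon genes was counted. T and NK cell markers summed to 0 to 2.07 CPM, and none of the 7 tested macrophage genes was counted in either direction. Neutrophil markers summed to 86.0 to 123 CPM, against 40.3 to 85.2 CPM, and were higher in every library. Of the 2 tested, S100a8 was counted as lower. For the integrin genes and other partners of the score genes, 1 of 12 was higher, Itgb5, a receptor subunit for periostin (425 to 626 CPM, against 164 to 220).

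Summed UMIs of the Postn/Ogn cells were tested with edgeR's quasi-likelihood test and Benjamini-Hochberg adjustment at 0.05, and "rose" and "fell" are used for genes past it. The p-values measure the spread between these libraries, and libraries of a line share their cells of origin. For Slc39a9 itself the log2 fold change of both hairpins against the control was -1.14 ± 0.27 (SE; edgeR adjusted p = 0.154). For hairpin 1 it was -1.24 ± 0.27 (adjusted p = 0.02) and for hairpin 2 -0.98 ± 0.33 (adjusted p = 0.188).

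Both hairpins were compared with the control line. With 1 control line, the knockdown and other differences between the lines cannot be told apart. Matrix genes were among the few that changed: the basement membrane protein Nid2 and the surface peptidase Mme rose, while Tnc, Fbln2, Prelp and the lysyl oxidases Lox, Loxl1 and Loxl2 fell. In all 25 of 10556 genes passed (0.237%), 4 higher and 21 lower (0.0379% and 0.199%), and 1386 had an unadjusted p under 0.05.

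Mme (neprilysin, which cuts peptides at the cell surface) was at 152 and 161 CPM in the control line, 458 and 481 in hairpin 1 and 425 and 397 in hairpin 2. The knockdown libraries lay above both control libraries without overlap, and the log2 fold change was 1.46 ± 0.14 (SE, adjusted p = 0.0154). Nid2 (nidogen 2) was at 21.1 and 14.6 CPM in the control line and at 61.3, 61.8, 48.5 and 54.4 CPM in the knockdown libraries (1.66 ± 0.21, adjusted p = 0.0306). Iqgap2, a scaffold of the cytoskeleton, rose by 1.23 ± 0.16 (adjusted p = 0.0325).

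Tnc (tenascin C), a glycoprotein of wounds and tumours, was at 845 and 712 CPM in the control line and at 256, 272, 283 and 335 CPM with knockdown, and fell by 1.48 on the log2 scale (SE 0.14, adjusted p = 0.0154). Lcn2, which binds bacterial iron carriers, was at 45.6 and 168 CPM and then at 1.40, 0.347, 3.98 and 2.07 CPM, the deepest fall (-6.29 ± 0.57, adjusted p = 0.0154). Tinagl1, a matrix protein, was at 78.1 and 98.9 CPM and then at 10.3 to 18.7 (-2.44 ± 0.20, adjusted p = 0.0154). Each of these genes, like Mme and Nid2, separated the 2 control libraries from the 4 others. All were named because they passed this test, so the separation is a description. The share of all genes that separate the libraries in this way was not counted.

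Among crosslinking enzymes 3 of 20 fell and none rose (median -0.03, against 0.0023 over all genes). Loxl2 was at 98.1 and 101 CPM and then at 34.2 to 49.7 CPM (-1.29 ± 0.16, adjusted p = 0.0282). Loxl1 and Lox gave -1.82 and -1.08, both with an adjusted p of 0.0397. Of 23 matrix glycoproteins, Nid2 rose and Tnc and Fbln2 (-1.24, adjusted p = 0.0258) fell (median -0.02). None of 16 collagen genes passed (median -0.07). Prelp, a proteoglycan, was at 138 and 107 CPM and then at 33.2 to 56.5 CPM (adjusted p = 0.0325). Bmp2 fell by 1.08 (adjusted p = 0.0258), the only 1 of 22 TGF-beta and BMP genes, and Mt2 by 0.89 (adjusted p = 0.0306), the only 1 of 18 zinc genes. AC124097.1, Lncpint and Mfap3l also fell.

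This count rests on single libraries: it was 1 without the control IgG library, 0 without the control anti-PD1 library, 6 and 7 without the hairpin 1 IgG and anti-PD1 libraries, and 52 and 55 without those of hairpin 2. It was 0 when the 2 libraries of a line were summed, 0 when the top 10% were taken within each library, and 123 with DESeq2.

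Hairpin 1 alone against the control line gave far more calls, a contrast of 1 line with 1 line whose p-values measure the spread between treatments. In the Postn/Ogn cells of hairpin 1, the MHC class I genes H2-K1, H2-D1 and B2m, Sparcl1, Col1a2 and Col3a1 rose, while Thy1, 8 inflammatory genes, Col1a1 and Bgn fell. In all 1063 genes passed (10.1%), 481 higher (4.56%) and 582 lower (5.51%). Lists are read against those shares and against a median log2 fold change over all genes of 0.00041. In the other tumour cells MHC class I genes summed to 1114 and 1093 CPM in the control line and 1514 and 1724 in hairpin 1. Inflammatory genes summed there to 4269 and 3909 CPM in the control line and 2235 and 2088 in hairpin 1. Both list sums thus shifted in the same direction outside the Postn/Ogn cells.

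H2-K1, an MHC class I heavy chain that presents peptides to CD8 T cells, was at 46.2 and 83.8 CPM in the control line, 386 and 219 in hairpin 1, and 113 and 138 in hairpin 2 (hairpin 1 log2 fold change 2.18 ± 0.30, adjusted p = 0.00211). Hairpin 1 stood above the other 4 libraries. B2m and H2-D1 rose by 0.40 and 0.91, so that 3 of 16 class I genes rose and none fell (median 0.35). Among 15 interferon gamma response genes Irf1, Igtp and Iigp1 rose (median 0.61). Sparcl1 rose by 3.35 ± 0.26 (adjusted p = 0.000114), Stmn2, a tubulin regulator of neurons, by 3.63, and the imprinted gene Mest by 2.31.

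Thy1, a surface protein of fibroblasts and T cells, was at 55.3 and 56.5 CPM in the control line, 0.934 and 0.347 in hairpin 1 and 35.0 and 14.5 in hairpin 2 (-6.43 ± 0.40, adjusted p = 3.82e-05). It was nearly absent from hairpin 1 only. C3, the central complement protein, was at 84.9, 131, 20.1, 24.6, 81.9 and 113 CPM (-2.27 ± 0.13, adjusted p = 3.82e-05). Slpi, a protease inhibitor, was at 233 and 114 CPM in the control line and 6.31 and 13.1 in hairpin 1. Of 13 inflammatory genes, a list drawn from earlier results on these libraries and so no independent evidence, 8 fell and none rose (median -1.53), including Ptgs2 (-1.53), Mmp3 (-1.82) and Ccl2. Of the zinc genes other than the targeted Slc39a9, Mt1, Mt2 and the transporters Slc39a13 and Slc39a14 fell and none rose.

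Of 12 host fibroblast markers in hairpin 1, 6 fell (Dpt, Pdpn, Pdgfra, Mfap5, Dcn and Thy1), Fap rose by 0.98 and 5 did not pass (median -0.89). Collagens split, with Col1a2 (0.62), Col3a1 (0.43) and Col18a1 (0.65) up and Col1a1 (-1.01), Col12a1 (-1.02) and Col6a3 down among 16 (median 0.01). Of 23 matrix glycoproteins 6 rose and 8 fell (median -0.11). Tgfbi, a collagen-binding target of TGF-beta, was at 245 and 227 CPM in the control line and at 491 and 584 in hairpin 1 (1.16 ± 0.12, adjusted p = 0.00051). Of 7 proteoglycans Bgn (-1.49), Dcn (-1.10) and Prelp fell. Among 15 mesenchymal transcription factors Msx1 (0.84), Tbx18 (0.56) and Osr2 (1.5) rose and Twist2 (-0.99) fell.

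The hairpin 1 count was 618 without the control IgG library and 368 and 482 without the hairpin 1 IgG and anti-PD1 libraries. It was 223 with the top 5% of tumour cells, 421 with DESeq2 and 3258 with the top 10% of each library.

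Hairpin 2 against the same control libraries gave 203 calls (1.92%), 71 higher (0.673%) and 132 lower (1.25%). In these cells the interferon genes Isg15, Bst2 and Iigp1 rose, while 11 genes of glycolysis and hypoxia, the basement membrane collagens Col4a1 and Col4a2 and Hmox1 fell. The median over all genes was -0.0041. In the other tumour cells type I interferon genes summed to 297 and 303 CPM in the control line and 425 and 574 in hairpin 2. Glycolysis and hypoxia genes summed there to 10768 and 10418 CPM in the control line and 8157 and 9052 in hairpin 2. Both list sums thus shifted in the same direction outside the Postn/Ogn cells. Both contrasts share their control libraries, so their values stand side by side without a measure of overlap.

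Stra6, a retinol transporter, was at 9.12 and 9.11 CPM in the control line, 14.1 and 11.1 in hairpin 1, and 81.9 and 59.6 in hairpin 2 (hairpin 2 log2 fold change 2.90, adjusted p = 0.00093). Isg15, a ubiquitin-like protein induced by interferon, was at 31.4, 31.0, 31.3, 32.0, 69.2 and 120 CPM (1.56 ± 0.22, adjusted p = 0.0097). Bst2, which tethers budding viruses, rose by 1.33 (adjusted p = 0.0298), so that 2 of 14 type I interferon genes rose (median 1.05). Mme rose by 1.35 ± 0.10 and Nid2 by 1.48. None of 16 MHC class I genes passed (median 0.32).

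Of 26 glycolysis and hypoxia genes 11 fell and none rose (median -0.66). Eno1 (enolase) was at 340 and 353 CPM in the control line, 295 and 303 in hairpin 1 and 169 and 193 in hairpin 2 (-0.99 ± 0.10, adjusted p = 0.00319). Ldha and Pgk1 fell by 0.72 and 0.54, and Slc2a1 by 1.09 (adjusted p = 0.0242). Hmox1, which breaks down haem, was at 49.6 and 235 CPM in the control line and 13.5 and 24.9 in hairpin 2 (-2.86). Its control libraries differed widely from each other. Of 16 collagens Col4a1 (-0.60), Col4a2, Col12a1 (-0.62) and Col1a1 (-0.43) fell and none rose (median -0.19). The hairpin 2 count was 320 without the control anti-PD1 library, 104 without the hairpin 2 IgG library and 21 without the hairpin 2 anti-PD1 library, and 36 with the top 5% of tumour cells.

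Anti-PD1 against IgG asked whether the checkpoint antibody changed the Postn/Ogn cells. No gene passed (0 of 10556), with 93 at an unadjusted p under 0.05. DESeq2 called 0 as well, and the fit with the line as a block called 0, with 257 at an unadjusted p under 0.05. Idi1, an enzyme of cholesterol synthesis, had the lowest p among lower genes, at 34.2, 24.1 and 29.4 CPM with IgG and 20.0, 16.2 and 13.5 CPM with anti-PD1 (log2 fold change -0.77, adjusted p = 1). Its antibody libraries were below their IgG partners in all 3 lines, but it was picked by its p-value, so this direction is a description. The share of all genes lower in all 3 lines was not counted. Fdft1, of the same pathway and picked in the same way, had -0.42. Among higher genes Cdkn1a (p21) had 0.57, Maff 0.43 and Plau (urokinase) 0.53. The share of Postn/Ogn cells was above its IgG partner in each line. The intervals overlapped in each line, but in hairpin 2 only at their ends (IgG up to 4.23%, anti-PD1 from 4.22%).

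An interaction term over 12 sums tested whether hairpin and control lines differed unequally in the Postn/Ogn cells and in the other tumour cells. Each hairpin is a single line, so the p-values for a single hairpin measure the spread between treatments and not between lines. Both cell groups come from a single cut over all libraries on genes that differ between the lines, and its part was not tested. For both hairpins 65 of 15000 genes passed (0.433%; 17 higher, 0.113%, and 48 lower, 0.32%), for hairpin 1 799 (5.33%; 428 higher, 2.85%, and 371 lower, 2.47%, or 337 and 431 under RLE scaling), for hairpin 2 159 (1.06%; 42 higher, 0.28%, and 117 lower, 0.78%) and for anti-PD1 0 (306 at an unadjusted p under 0.05, 20 past the test with the line as a block). Values are the log2 fold change in Postn/Ogn cells minus that in the other tumour cells.

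Col1a1 differed in each: -1.27 for both hairpins (adjusted p = 0.00402), -1.5 for hairpin 1 (adjusted p = 1.97e-14) and -1.03 for hairpin 2 (adjusted p = 3.34e-08). It was lower in the knockdown libraries than in the control libraries within the Postn/Ogn cells and higher within the other tumour cells. Col7a1, the anchoring fibril collagen, was at 134, 191, 151, 206, 81.1 and 93.2 CPM in the Postn/Ogn cells and at 13.2, 18.4, 69.0, 97.8, 16.4 and 26.3 CPM outside (-1.86 for both hairpins, adjusted p = 0.00402). Loxl2 gave -1.36 and Tfap2a, a neural crest factor, 1.32, each with the same adjusted p.

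For hairpin 1, collagens had 3 of 20 higher (Col6a1, Col6a2, Col4a2) and 6 lower (Col1a1, Col1a2, Col3a1, Col8a1, Col11a1, Col12a1). G2/M genes had 19 of 37 lower (median -0.77, against 0.026 over all genes), such as Tpx2 (-1.08). Tpx2 was at 26.2 and 70.4 CPM in the control Postn/Ogn cells and 32.5 and 39.9 in hairpin 1, against 70.3 and 64.8, then 101 and 132 outside. Immediate early and heat shock genes had 10 of 19 higher (median 0.35), with Btg2 at 0.82, and ATF4 targets had 8 of 25 higher (median 0.37), with Ddit3 at 1.08 and Slc7a11 at 1.81. Acta2 was lower by 2.46, 1 of 4 lower among 15 contractile genes.

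These counts moved with the libraries used. For both hairpins the count was 144 without the control IgG library, 279 without the hairpin 1 anti-PD1 library, and 151 and 258 without the hairpin 2 libraries, and it was 13 with the top 10% taken within each library. For hairpin 1 it was 514 without the control anti-PD1 library and 448 and 282 without those of hairpin 1.

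**Figure D5:**
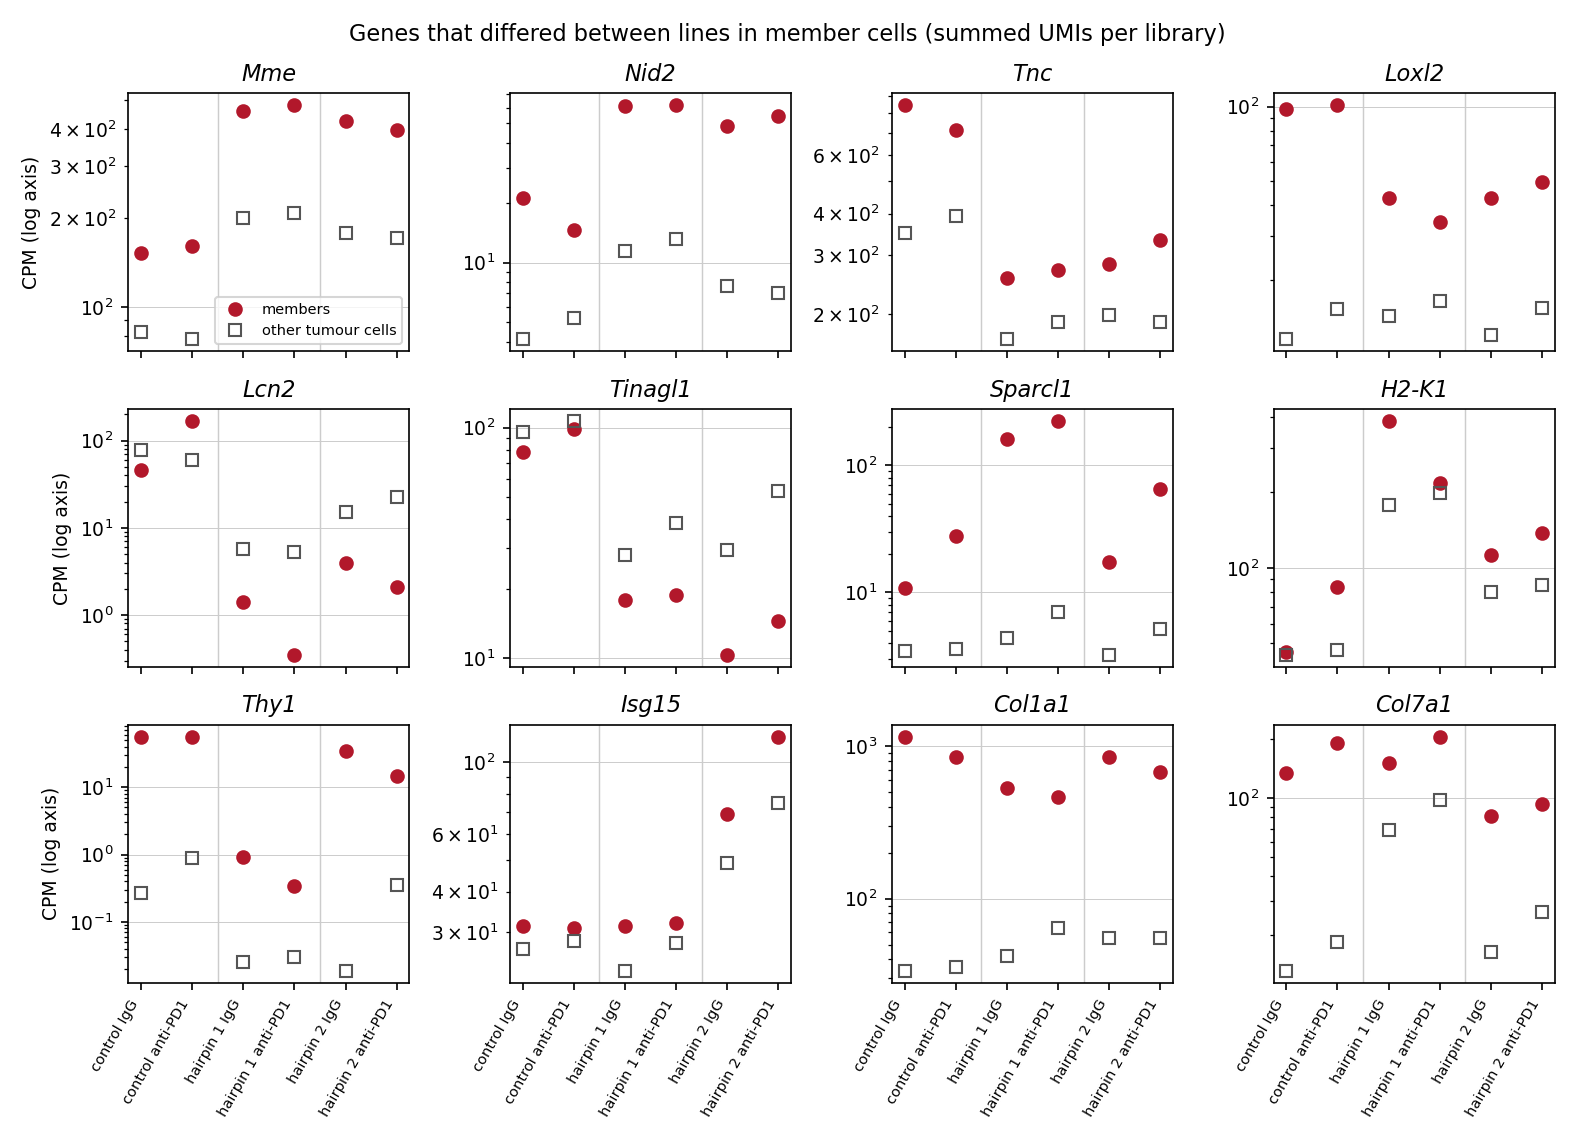
Level (CPM, log axis) of 12 genes in Postn/Ogn cells (filled) and other tumour cells (open) of the 6 libraries. Mme is at 152 and 161 CPM in the control Postn/Ogn cells and at 397 to 481 CPM in those of the 4 knockdown libraries, and Thy1 falls to 0.934 and 0.347 CPM in hairpin 1.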

How the data were processed

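Cell Ranger 7.0.1 and the mm10 assembly were used, per the submitters' processing notes. The deposited values are raw UMI counts per gene and barcode, not normalised. Per the labels' protocols, tumours were harvested, minced and digested with collagenase and dispase before a benchtop single-cell kit was used. The libraries held 5095 to 8881 barcodes and 58859821 to 83204249 UMIs. Gene positions come from GENCODE M21 (30934 of 31053 identifiers found) and promoters from RefSeq (GRCm38.p6), which held 13 of the 21 genes looked up.

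Counts were summed per library over the Postn/Ogn cells and over the other tumour cells. The rule for the cells, the lists and the genes were chosen with earlier results of these data known. Ratios use a prior of 1 CPM. Tests used edgeR 4.0.16 in R 4.3.3 with TMM scaling and filterByExpr on genotype and treatment (3 residual degrees of freedom), or on line and treatment (2). The interactions were fitted on library, cell group, and the products of cell group with treatment and with genotype or line. The 7 score genes and 7 gate genes were left out of all counts. Named genes are the 15 highest and 10 lowest ratios, or up to 10 fold changes in each direction past the test (5 in each direction by lowest p for interactions and where none passed), with a mean of at least 20 CPM, plus up to 4 of the most abundant genes of each of 33 lists and those past the fold or test; Aspn, Omd and Ecm2 as neighbours of Ogn.

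Samples with the same number are treatments of 1 cell line by the labels, which pairs them. Deviations from the treatment means of the 2 libraries of a line correlated at 0.500 (control), 0.705 (hairpin 1) and 0.353 (hairpin 2) over 7472 genes. Scrublet in scanpy 1.11.5 (expected rate 0.06) marked 0.883% to 1.67% of barcodes per library as doublets, 5 of them Postn/Ogn cells, which were kept. Alternatives were DESeq2 1.42.0, other scaling, filters, cuts, thinning to 3000 UMIs, each library left out and the line as block. Levels of Penk and H19 without their top cell were added after seeing the data. Intervals are exact binomial at 95%.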

Additional observations from a re-analysis of the deposited data

Results flagged for a closer look

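In 30 results the difference between hairpin and control lines in the Postn/Ogn cells was unlike that in the other tumour cells, by the interaction test of edgeR. Values are log2 fold change in the Postn/Ogn cells minus that in the other tumour cells, for both hairpins together, hairpin 1 or hairpin 2 against the control line. The 3 contrasts share the control libraries, and no cause was tested. With the top 10% of cells taken within each library, the difference of Col1a1 alone of the 10 for both hairpins stayed past the test, while the 10 for each hairpin all did. With the top 5% of tumour cells 2 of the 10 for both hairpins and 4 of the 10 for hairpin 2 did not pass. Without cells with Y-linked UMIs 1 for both hairpins did not pass, and with DESeq2 1 for hairpin 2.

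Collagens and their crosslinking enzyme were among them. Col1a1 differed by -1.27 for both hairpins, -1.5 for hairpin 1 and -1.03 for hairpin 2. Col7a1 differed by -1.86, -2.18 and -1.31. Loxl2 differed by -1.36 for both hairpins: it was at 98.1 and 101 CPM in the control Postn/Ogn cells and 34.2 to 49.7 CPM with knockdown, and at 11.5 to 16.4 CPM in the other tumour cells of all lines.

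Secreted and surface genes followed. Csf1, the macrophage growth factor, differed by -1.55 for hairpin 1, with 481 and 460 CPM in the control Postn/Ogn cells and 174 and 193 CPM in hairpin 1. Vcam1, an adhesion molecule for leukocytes, differed by -1.33 for hairpin 1: it was at 296 and 260 CPM, then 343 and 322 CPM, in the Postn/Ogn cells and at 64.7 and 59.4 CPM, then 172 and 225 CPM, outside. Sparcl1 differed by 2.77 for hairpin 1. Bmp2 differed by -1.16 for hairpin 2, with 167 and 160 CPM in the control Postn/Ogn cells and 88.3 and 75.1 CPM in hairpin 2, while the other tumour cells of these lines held 334 to 405 CPM. Igfbp3, which binds insulin-like growth factors, differed by 0.66 for hairpin 2.

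Receptors and regulators differed the other way in several cases. Igf2r, the scavenger receptor for IGF2, differed by 0.84 for both hairpins, 0.98 for hairpin 1 and 0.69 for hairpin 2: it was at 388 and 402 CPM in the control Postn/Ogn cells and 422 to 523 CPM with knockdown, and at 306 and 293 CPM, then 199 to 237 CPM, outside. Klf9, a transcription factor induced by glucocorticoids, differed by 0.92 for both hairpins and 1.12 for hairpin 1. Tfap2a differed by 1.32 for both hairpins and 1.21 for hairpin 2. Fgfrl1, a receptor of the FGF family without a kinase, differed by 1.09, with 54.7 and 53.4 CPM in the control Postn/Ogn cells and 89.1 to 110 CPM with knockdown. Ddit3 (CHOP) differed by 0.97 for both hairpins, and the netrin receptor Unc5b by 1.05 for hairpin 1.

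Trp53i11 differed by -2.27 for hairpin 1 and -1.19 for hairpin 2. Mfap3l differed by -1.36 for both hairpins and -1.65 for hairpin 2, and the tubulin gene Tubb4b by -0.98 for both hairpins. Lgals7, a galectin of epithelia, differed by 1.61 for hairpin 1, with 23.3 to 31.6 CPM in the Postn/Ogn cells of all lines and 98.5 and 132 CPM in the other control cells. Csrp2, a LIM protein of muscle, and Plin2, a lipid droplet protein, differed by 0.85 and 0.90 for hairpin 2.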

How the results depend on the processing

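The higher and lower counts of the Postn/Ogn cells against the other tumour cells (541 and 310) stayed within 1.5 times in each alternative run. Leaving out a library gave 563 to 603 and 318 to 434. With fewer libraries to pass the rule is looser, so these rises are no measure of stability. Of the main counts and shares, 119 alternatives stayed close and 62 moved. The cause of the moves was not tested. With the top 5% of tumour cells the shares were 1.57% and 1.52% in the control line, 15.4% and 17.0% in hairpin 1 and 1.12% and 1.54% in hairpin 2. The top 10% within each library gives about the same share in each by construction, and 56.3% of the cells it takes were Postn/Ogn cells.

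For both hairpins the 25 genes became 123 with DESeq2, 619 with no filter on low counts, 0 with the top 10% within each library, 10 with thinned scores, 9 without Nrep, 13 without cells with Y-linked UMIs and 0 with the libraries of a line summed. Without 1 library they were 0 to 55. For hairpin 1 the 1063 became 421 with DESeq2, 1681 with no filter, 223 with the top 5%, 3258 with the top 10% within each library, and 368 to 1313 without 1 library. For hairpin 2 the 203 became 126 with DESeq2, 634 with no filter, 36 with the top 5%, 685 with the top 10% within each library, and 21 to 320 without 1 library. For anti-PD1 the 0 became 23 with no filter, stayed 0 without 1 library (0 to 0), and was 0 with the replicate block of the line.

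For the differences between Postn/Ogn cells and other tumour cells, the 65 for both hairpins became 400 with no filter, 127 with the top 5%, 13 with the top 10% within each library, 147 with thinned scores, and 53 to 279 without 1 library. The 799 for hairpin 1 became 146 with DESeq2, 453 with the top 5%, 2307 with the top 10% within each library, and 282 to 988 without 1 library. The 159 for hairpin 2 became 34 with DESeq2, 381 with the top 10% within each library, 319 with thinned scores, 101 without Nrep, 251 without cells with Y-linked UMIs, and 179 to 222 without 1 library. The 0 for anti-PD1 became 21 with no filter, 3 with the top 5%, 20 with the replicate block of the line, and 2 to 33 without 1 library (33 without the hairpin 1 anti-PD1 library, 5 without the control IgG library and 2 without each of the other 4).

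Of the named genes 1 changed direction: Slpi in hairpin 2 had a log2 fold change of 0.22 with the top 5% of tumour cells. The smallest group, 149 cells and 1257572 UMIs, limits genes of low level.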
